A study of Homo sapiens with 6 samples.

Results

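The 8 genes described here encode the AP-1 transcription factors FOS, FOSB, FOSL1, FOSL2, JUN, JUNB and JUND and their stress-induced relative ATF3. They were chosen by symbol, and all 8 were found among the 30267 genes of a table of normalized counts. RNA-seq was performed on the established cell line SW839, from a renal cell carcinoma, in 3 libraries labelled shRNF25, from cells with a short hairpin against the E3 ubiquitin ligase RNF25, and 3 libraries labelled shControl, from cells with the vector pLKO in its place. The study asked what RNF25 does in renal carcinoma cells, and described the libraries as biological triplicates. The paper describes lentiviral delivery and puromycin selection for its stable lines, whereas the treatment label of all 6 samples, controls included, names a plasmid carrying the RNF25 hairpin, so the groups rest on titles, genotype labels and library names. A single hairpin name, shRNF25B, is carried by all knockdown libraries, whereas the control library names differ in their suffix, and no clone, time after infection or sequencing batch is given in the labels. The members were picked with their values in this comparison already known, and their differences between the groups are therefore given as a description, without a p-value.

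AP-1 is a dimer of basic leucine zipper proteins that binds short DNA elements in promoters and enhancers. FOS proteins cannot pair with themselves and bind DNA as partners of JUN proteins, whereas JUN proteins can also form homodimers. FOS and FOSB are immediate-early genes, transcribed within minutes of a growth or stress signal into messages that decay rapidly. FOSL1 and FOSL2, also called FRA1 and FRA2, are usually induced later and lack the strong activation domain of FOS and FOSB. JUNB and JUND are weaker activators than JUN in many settings, and ATF3 often represses transcription as a homodimer.

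The reads counted on genes numbered 18647460 to 19943154 in each library, and a normalized count is such a number divided by a size factor of its library. RNF25 itself was at 588 ± 91.95 normalized counts in the controls and 241.6 ± 25.7 in the knockdown (SD, n = 3 each). The epithelial keratins KRT8 and KRT18 were at 15768 normalized counts or more in every library. They made up most of the summed level of 10 renal carcinoma markers, which was 54282 to 64850 in shControl and 65324 to 69854 in shRNF25. KRT8 was at 28459 ± 5421.5 and 36519 ± 1462 (SD, n = 3 each). The epithelial markers CDH1, at 7713 ± 669 and 5534 ± 217, and EPCAM, at 5488 ± 603 and 4385 ± 162, were lower in shRNF25. Of the 9 tested markers, 4 had a log2 fold change above 0 and 5 below it. Only VIM was called, as higher, or 11.1% against 15.7% of all tested genes. The renal lineage factor PAX8 lay between 76.7 and 140.3, and the hypoxia-induced carcinoma marker CA9 between 1.85 and 50.7. Of 12 measured markers of immune, endothelial and fibroblast-like cells, 8 had 15 reads or fewer in every library, and the summed level of the 12 was 1587 to 1957 in shControl and 1293 to 1581 in shRNF25. Among them CDH5, an endothelial cadherin, went from 124.7 ± 65.7 to 5.89 ± 2.34 (SD, n = 3 each), while PECAM1, another endothelial marker, was at 400.3 ± 59.7 and 452 ± 84.7 and was not called. Most of the summed level came from the fibroblast marker COL1A1, at 1176.6 ± 84.5 in shControl and 913.6 ± 73.1 in shRNF25, which was not called either. CDH5 passed the filter on low values only through the control libraries, and the part of these markers in the results below was not tested.

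FOS and FOSB showed the largest differences among the 8 genes, and both were higher in shRNF25. FOS, the founding member of the family, lies at chr14:75278774-75282230 on the plus strand (GENCODE 29, GRCh38). Its normalized count was 157, 182 and 564 across the control replicates in order and 1883, 2088 and 2087 across the knockdown replicates. The groups did not overlap, and the lowest shRNF25 library was 3.34-fold above the highest control library. The means were 301 ± 228 and 2019.65 ± 118 (SD, n = 3 each), a 6.71-fold difference, and the log2 fold change was 2.99 (standard error 0.397) on the log2(normalized count + 1) scale used throughout. In bulk RNA, more transcript per cell and more cells with the transcript cannot be told apart.

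FOSB, the closest relative of FOS in this family, lies at chr19:45467995-45475179 on the plus strand. Its normalized count was 102, 139.5 and 529 across the control replicates in order and 1013, 1242 and 1109.5 across the knockdown replicates. No control library reached the shRNF25 range, with the nearest at 1.92-fold below the lowest shRNF25 library. The log2 fold change was 2.51 (standard error 0.493), and the means were 257 ± 236 and 1122 ± 115 (SD, n = 3 each). The size of both rises depended on which control library served as reference. The mean of shRNF25 was 12.9-fold above shControl replicate 1 for FOS and 11.0-fold for FOSB, but 3.58-fold and 2.12-fold above shControl replicate 3. Without shControl replicate 3 the log2 fold changes were 3.57 for FOS and 3.22 for FOSB, and without shControl replicate 1 they were 2.65 and 2.04. The FOSB gene body overlaps ERCC1 on the opposite strand, but the exons share no bases.

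**Figure D1:**
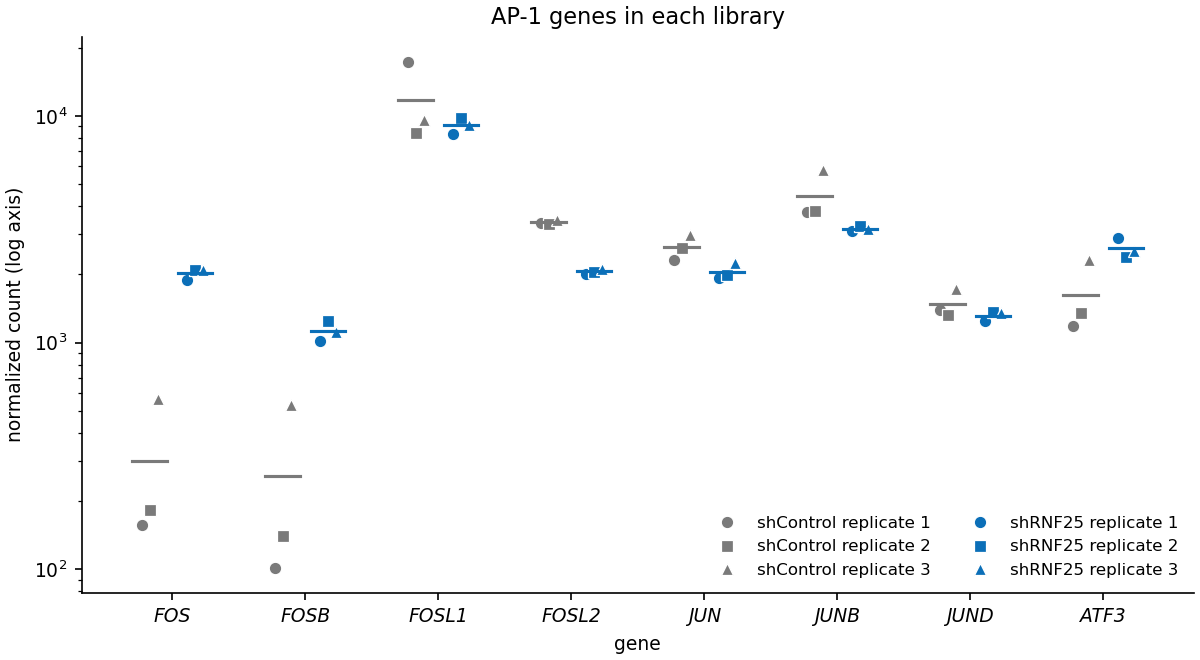
Normalized count (log axis) of each AP-1 gene in the 3 shControl (grey) and 3 shRNF25 (blue) libraries, with a marker shape per replicate number and a bar at the group mean. FOS and FOSB in shRNF25 lie above all control libraries, and shControl replicate 3 is the highest control for every gene but FOSL1.

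The promoter sequences of FOS and FOSB are shown because these genes rose together. They are the 250 bases before the RefSeq start of each gene on the plus strand of GRCh38.p14, FOS at chr14:75278578-75278827 and FOSB at chr19:45467746-45467995, written 5′ to 3′, with capitals marking TGACGT, the first 6 letters of the cAMP response element, and TATAAA, the TATA box. The RefSeq start of FOS lies slightly downstream of its GENCODE start. For FOSL2, JUN and the second ATF3 window, described below, the whole window lies inside the GENCODE position of the gene given here.
FOS: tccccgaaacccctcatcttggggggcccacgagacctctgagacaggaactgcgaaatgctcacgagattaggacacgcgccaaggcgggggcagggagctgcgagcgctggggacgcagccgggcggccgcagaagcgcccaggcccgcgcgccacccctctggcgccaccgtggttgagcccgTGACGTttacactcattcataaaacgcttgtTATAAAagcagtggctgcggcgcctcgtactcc
FOSB: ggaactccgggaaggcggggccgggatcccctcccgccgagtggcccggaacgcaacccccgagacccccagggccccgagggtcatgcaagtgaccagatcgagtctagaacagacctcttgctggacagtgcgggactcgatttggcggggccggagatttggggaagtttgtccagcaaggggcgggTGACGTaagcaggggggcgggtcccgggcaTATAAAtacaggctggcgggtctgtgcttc
In both promoters the pair of motifs had the same order and a similar spacing. TGACGT began 64 bases before the start in FOS and 60 bases before it in FOSB, and TATAAA began 33 and 30 bases before it. Of 35116 RefSeq promoter windows of this length, 7.10% held TGACGT and 10.7% held TATAAA on either strand, and TGACGT was added to the search after the sequences had been seen. The share of windows that hold both motifs, or hold them at such positions, was not counted. The RefSeq table matched 7 of the 8 members, all but FOSL1. FOSL2 had TGACGT beginning 66 bases before its start and no TATAAA, and JUNB had TATAAA beginning 31 bases before its start and no TGACGT. JUND held the whole cAMP response element TGACGTCA, which reads the same on both strands and contains TGACGT, beginning 200 bases before its start, against 1.65% of all windows, and also TGACGT on the minus strand 87 bases before it. JUN and the first of a pair of ATF3 windows held the variant TGACATCA (2.38% of all windows, also added after the sequences were seen), 67 and 123 bases before the start, and the second ATF3 window held TATAAA 230 bases before its start. The AP-1 site TGANTCA (6.57% of all windows), the CArG box bound by serum response factor (1.16%) and the NF-κB site (9.96%) were not matched in these windows on either strand. A match describes letters in this window and is not evidence of binding. Sites further upstream than these 250 bases were not searched, so a motif without a match here may lie outside the window.

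**Figure D2:**
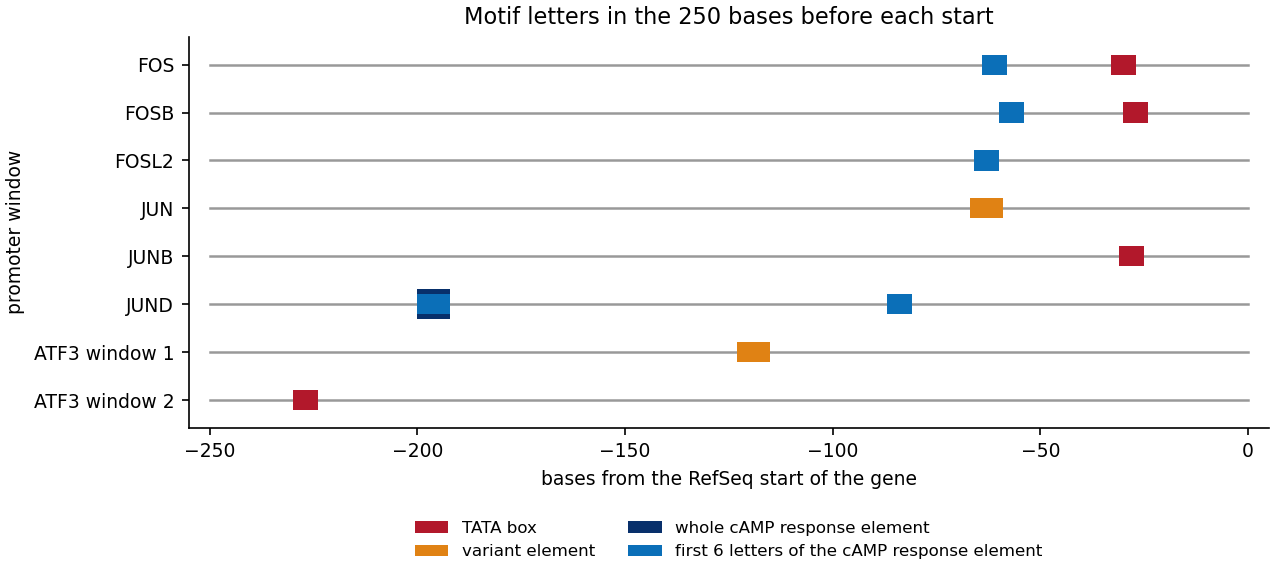
Position of matched motif letters in the 250 bases before the RefSeq start of 7 AP-1 genes (ATF3 has 2 windows), with the x axis in bases from the start. FOS and FOSB carry a TATA box about 30 bases before the start and TGACGT about 60 bases before it, while FOSL2 has TGACGT and JUNB a TATA box only.

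ATF3, a bZIP factor induced by many forms of stress, was moderately higher in shRNF25, and its call was fragile. The gene lies at chr1:212565334-212620777 on the plus strand. Its normalized count was 1182, 1349 and 2318 across the control replicates in order and 2888, 2395 and 2535 across the knockdown replicates. The groups did not overlap, but the highest control library and the lowest shRNF25 library differed by 1.03-fold. The log2 fold change was 0.75 (standard error 0.223), which was past the criteria used for all genes here, an adjusted p under 0.05 in the limma fit together with a change of 1.5-fold or more. It failed them in 7 of 15 alternative fits, namely with edgeR, without a filter on low values, and without shControl replicate 1 or 2 or any of the shRNF25 replicates. Between the alternatives that left out a library, the log2 fold change ranged from 0.55 without shControl replicate 1 to 1.04 without shControl replicate 3.

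FOSL2 was the only member lower in shRNF25 past both criteria. It lies at chr2:28392448-28417312 on the plus strand. Its normalized count was 3382, 3343 and 3474 across the control replicates in order and 2010.1, 2058 and 2108 across the knockdown replicates. Both groups were tight, and the control values stood well apart from those of the knockdown. The means were 3400 ± 67.5 and 2059 ± 49.2 (SD, n = 3 each), so that shRNF25 was at 60.6% of control, and the log2 fold change was -0.72 (standard error 0.0932). The log2 fold change stayed between -0.74 and -0.71 when any library was left out. It was -0.60 with quantile normalization and -0.66 with rescaling on the median ratio, closer to the 1.5-fold limit but still past it.

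FOSL1, a FOS relative that is abundant in many carcinoma lines, gave a difference that rested on a single control library. It lies at chr11:65892049-65900573 on the minus strand. Its normalized count was 17279, 8405 and 9628 across the control replicates in order and 8324, 9818 and 9112 across the knockdown replicates. Without shControl replicate 1, which was 1.92-fold above the mean of the other controls, the shRNF25 values surrounded those of the controls. The log2 fold change was -0.30 (standard error 0.234) with all libraries and 0.01 without that library, and it did not pass the criteria in either case.

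The JUN family had log2 fold changes below 0, and none of its 3 genes passed the criteria. JUN, a partner in FOS dimers (chr1:58780788-58784327, minus strand), was at 2310.4, 2620.5 and 2990 across the control replicates in order and at 1924, 1983 and 2240.0 across the knockdown replicates. The highest shRNF25 library lay just under the lowest control, and the log2 fold change was -0.36 (standard error 0.124). JUNB (chr19:12791496-12793315, plus strand) was at 3783, 3797 and 5780 in shControl and at 3093, 3254 and 3155 in shRNF25, in the same order of replicates. Here too the groups did not overlap, and the log2 fold change was -0.46 (standard error 0.162), or -0.26 without shControl replicate 3. Of the JUNB exon bases, 14.2% are shared with HOOK2 on the opposite strand, and although the kit was stranded, the sources used here do not say whether reads were counted by strand. JUND (chr19:18279760-18281622, minus strand) was at 1388, 1319 and 1728 in shControl and at 1243, 1358 and 1346 in shRNF25. The groups overlapped, and the log2 fold change was -0.16 (standard error 0.126), the smallest among the members.

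Of the 8 members, 3 were higher (FOS, FOSB and ATF3) and 1 was lower (FOSL2) past both criteria. Among all 16554 genes tested with limma, 15.7% were called in either direction, 8.65% higher and 7.1% lower. At a fold change of at least 2, FOS and FOSB were called among the members and 8.49% of all tested genes. FOS and FOSB stayed higher and FOSL2 stayed lower past the criteria in each of the 15 alternative fits that kept the 1.5-fold limit, whereas FOSL2 was not called at a fold change of at least 2. These fits reuse the same libraries, for genes picked with this comparison known. They describe how the calls depend on the settings and are not independent support. The groups did not overlap for 6 members, 3 higher and 3 lower, against 42.5% of all tested genes, 20.7% higher and 21.8% lower. Of the members just inside the 1.5-fold limit, FOSL2 was 1.65-fold lower and ATF3 1.68-fold higher on the fitted scale, and just outside it JUNB was 1.38-fold and JUN 1.28-fold lower. The median log2 fold change of the 8 was -0.23, against -0.01 over all tested genes. All 8 members passed the filter on low values, with at least 92 reads in every library, and JUNB, JUN, FOSL1 and JUND were not called.

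**Figure D3:**
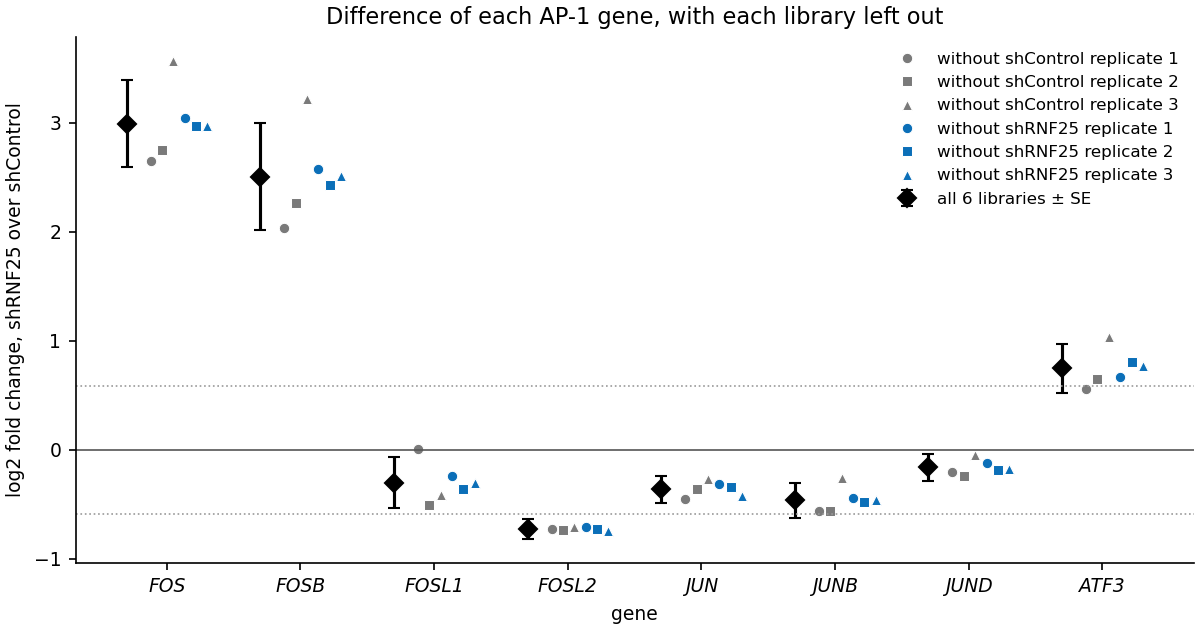
Log2 fold change (shRNF25 over shControl) of each AP-1 gene with all 6 libraries (black diamond, bar = standard error) and with each library left out in turn (grey, a control left out; blue, a knockdown library left out). The dotted lines mark a fold change of 1.5, and leaving out shControl replicate 3 raises FOS to 3.57 and FOSB to 3.22, while FOSL1 moves to 0.01 without shControl replicate 1.

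The total of the family overlapped between the groups, whereas the shares of FOS and FOSB did not. The summed normalized count of the 8 genes was 29583, 21156 and 27011 across the control replicates in order and 22378, 24194 and 23694 across the knockdown replicates. The totals overlapped, at 25916 ± 4319 against 23422 ± 938 (SD, n = 3 each). FOS made up 0.531%, 0.858% and 2.09% of the sum in the controls and 8.42%, 8.63% and 8.81% in shRNF25. FOSB made up 0.344%, 0.660% and 1.96% in the controls and 4.53%, 5.13% and 4.68% in shRNF25. Together they went from 2.15% ± 1.68 to 13.4% ± 0.418 (SD, n = 3 each). The share of ATF3 was 6.32% ± 2.29 in shControl and 11.2% ± 1.56 in shRNF25.

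FOSL1 held the largest share in every library. It was 58.4%, 39.7% and 35.6% across the control replicates in order and 37.2%, 40.6% and 38.5% across the knockdown replicates, where the knockdown values lay within the control range. FOSL2 took 13.4% ± 2.23 of the sum in shControl and 8.80% ± 0.255 in shRNF25, without overlap. JUNB took 17.4% ± 4.33 and 13.5% ± 0.264, JUN 10.4% ± 2.36 and 8.75% ± 0.643, and JUND 5.78% ± 0.941 and 5.62% ± 0.0632 (SD, n = 3 each). The 4 FOS family genes together held 60.1% ± 9.46 in shControl and 60.9% ± 1.86 in shRNF25, and the 3 JUN family genes 33.6% ± 7.27 and 27.9% ± 0.602. As each share includes the others in its denominator, a gain for FOS lowers the share of the rest.

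Longer transcripts give more reads, so levels were also compared per kilobase of merged exon in GENCODE 29, which ranges from 1820 bases for JUNB to 7157 bases for FOSL2. On this scale the share of FOS was 0.841% ± 0.613 in shControl and 6.50% ± 0.139 in shRNF25, and that of FOSB 0.419% ± 0.370 and 2.10% ± 0.115 (SD, n = 3 each). FOSL1 led at 54.4% ± 12.1 and 50.1% ± 1.67, followed by JUNB at 22.3% ± 6.33 and 18.1% ± 0.494. The level of FOS per kilobase was 10.3%, 12.01% and 35.9% of that of FOSL2 across the control replicates in order, and 207%, 224% and 219% across the knockdown replicates. FOS was thus below FOSL2 per kilobase in all control libraries and above it in all knockdown libraries. This crossing, and the orders of levels given below, depend on the exon lengths used. These lengths merge the exons of all annotated transcripts of a gene, and can exceed that of any single transcript. In normalized counts FOS was at 93.7%, 101% and 99.0% of FOSL2 across the knockdown replicates in order. Relative to FOSL1, FOS per kilobase was at 1.74% ± 1.501 in shControl and 12.98% ± 0.511 in shRNF25. In shRNF25 the order of mean levels per kilobase was FOSL1 (4814 ± 396), JUNB (1740.3 ± 44.4), JUND (706 ± 33.9), ATF3 (645 ± 62.8), FOS (624 ± 36.4), JUN (579 ± 47.5), FOSL2 (288 ± 6.87) and FOSB (202 ± 20.7), each with its SD over 3 libraries. The neighbours ATF3 and FOS, and FOS and JUN, differed by less than the sum of their SDs, as did JUND and ATF3. In shControl the order was FOSL1 (6238 ± 2549), JUNB (2447 ± 631), JUND (794 ± 117), JUN (746 ± 96.1), FOSL2 (475 ± 9.44), ATF3 (400.1 ± 152), FOS (93.0 ± 70.6) and FOSB (46.2 ± 42.6), where JUND and JUN, FOSL2 and ATF3, and FOS and FOSB lay within the sum of their SDs.

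**Figure D4:**
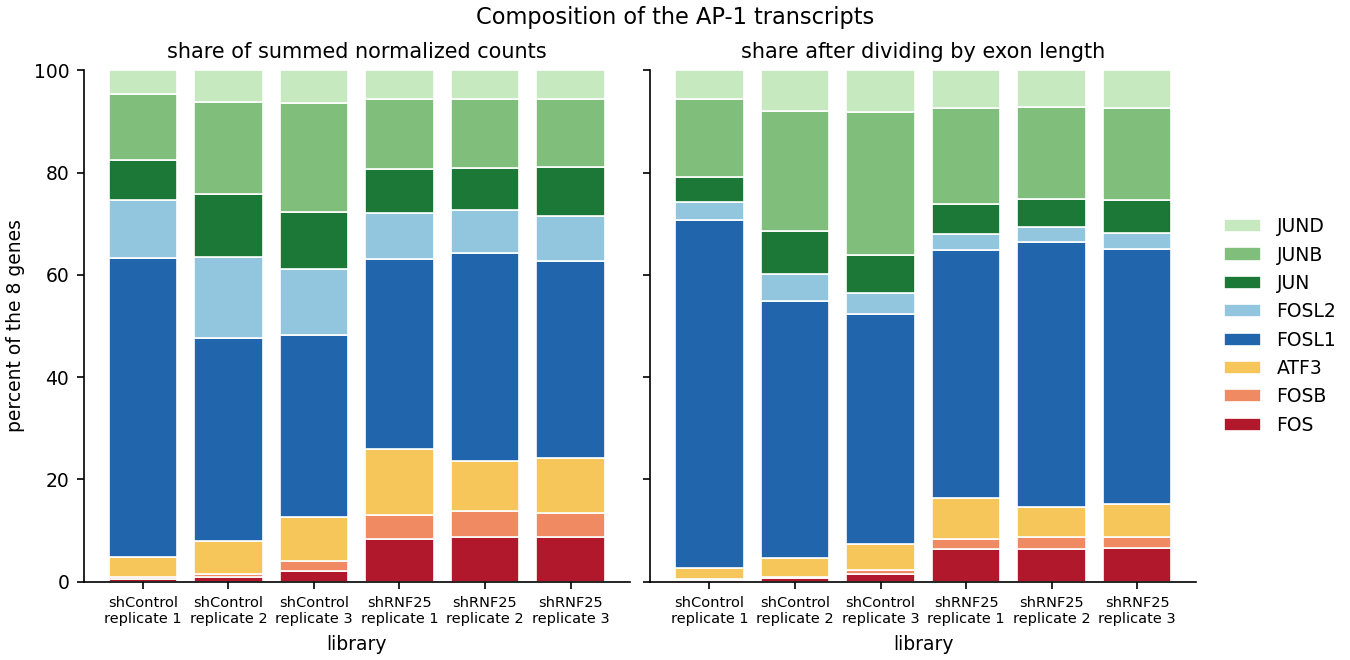
Share of each AP-1 gene in the sum of the 8, in percent, for each library, from normalized counts (left) and after division by exon length (right). FOS and FOSB together take 0.874% to 4.05% of the counts in shControl and 12.9% to 13.8% in shRNF25, and FOSL1 is the largest block in every library.

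The control libraries differed from each other more in FOS and FOSB than in most genes. The highest control value was 3.60-fold above the lowest for FOS and 5.20-fold for FOSB, ratios that 2.63% and 1.12% of all tested genes reached. The median ratio over all tested genes was 1.41. For ATF3 the ratio was 1.96 and for FOSL1 2.06, while for FOSL2 it was 1.04, a ratio reached by 98.9% of tested genes. In shRNF25 the ratio was 1.11 for FOS and 1.23 for FOSB, against a median of 1.14 over all tested genes. Replicate 3 was the highest control library for 7 of the 8 members, FOSL1 being the exception, whereas it was the highest for 31.6% of all tested genes. In that library FOSB was 4.38-fold and FOS 3.33-fold above the mean of the other controls, ATF3 1.83-fold and JUNB 1.52-fold. The labels give no detail of harvest or batch that sets this library apart. Its library name does differ, being plain PLKO where the names of the other controls carry a suffix, and the meaning of that suffix is not given. The part of this library in the differences is given above by leaving it out.

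Genes that act with AP-1 were examined in lists written from general knowledge, but with earlier results of these data known, so the counts and p-values given for them are not independent evidence. Among 16 tested bZIP factors that pair with FOS or JUN proteins or compete for their sites, 1 rose and 0 fell past both criteria, or 6.25% against 15.7% of all tested genes. In the limma fit 1 of them was higher and 3 were lower at an unadjusted p below 0.05. With edgeR 1 was called higher and 0 lower, and with DESeq2 1 higher and 1 lower. The gene that rose was JDP2, a repressor that binds JUN and occupies AP-1 sites. It went from 128 ± 10.1 to 259.9 ± 42.4 normalized counts (SD, n = 3 each). Its log2 fold change was 1.01 with a standard error of 0.159 (limma, adjusted p = 0.00263), and it kept its call in all 15 alternative fits, with adjusted p-values up to 0.0204. JDP2 lies 145485 bases downstream of FOS on the same strand of chromosome 14 (chr14:75427716-75474111). BATF, the next bZIP gene 48313 bases further on, was at 1.85 normalized counts or less in every library. The median log2 fold change of the list was -0.20.

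Upstream of AP-1, 20 kinases and serum response factors were tested, of which 1 rose and 1 fell, or 10.0% against 15.7% of all tested genes. At an unadjusted p below 0.05 in the limma fit, 2 were higher and 7 lower. MAP2K6, an activator of p38 kinase, rose from 98.5 ± 9.81 to 162 ± 18.2 (SD, n = 3 each; log2 fold change 0.71, adjusted p = 0.0139 from limma), but its adjusted p was 0.0845 and 0.0681 without shRNF25 replicate 1 or 2. ELK3, a partner of serum response factor, fell from 1573 ± 598 to 756 ± 34.2 (log2 fold change -0.99, adjusted p = 0.012 from limma), with an adjusted p of 0.0538 and 0.0537 without shRNF25 replicate 1 or 3. Of 14 factors that act on AU-rich messages or on FOS and JUN protein, 0 rose and 1 fell, or 7.14% against 15.7% of all tested genes. In the limma fit 1 was higher and 4 were lower at an unadjusted p below 0.05, and edgeR and DESeq2 each called 0 higher and 1 lower. ZFP36L1, which promotes decay of AU-rich messages, fell with a log2 fold change of -0.81 (adjusted p = 0.0293 from limma). It failed the criteria without shControl replicate 1 or 3 or any shRNF25 replicate, with log2 fold changes between -0.88 and -0.55.

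Of 25 other immediate-early genes tested, 1 rose and 4 fell, or 20% against 15.7% of all tested genes, and the median log2 fold change was -0.05. CCN2, a secreted matrix-associated protein, rose from 824 ± 321 to 2493 ± 79.5 (SD, n = 3 each; log2 fold change 1.67, adjusted p = 0.00125 from limma). IER3, an NF-κB target that modulates survival, fell with a log2 fold change of -2.06 (adjusted p = 3.37e-05), and CCN1, a relative of CCN2, with -1.01 (adjusted p = 0.000302, both from limma). The other genes that fell, named after their values were seen, were NFKBIZ and MYC. EGR1, often induced with FOS by the same signals, was at 684, 284 and 1366 across the control replicates in order and at 1187, 1238 and 1256 across the knockdown replicates, and was also named after its values were seen. Among the controls only shControl replicate 3 reached the knockdown range, and the log2 fold change was 0.93 (adjusted p = 0.167 from limma).

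Of 25 tested genes with well known AP-1 sites, 3 were called higher and 14 lower, which together is 68.0% of the list, against 15.7% of all tested genes (8.65% higher and 7.1% lower). Like the other lists, it was chosen with earlier results of these data known, and its count is a description. The median log2 fold change was -0.85, and several of these genes are also NF-κB targets. The largest falls were those of the cytokine IL6, at -3.83 (adjusted p = 1.91e-06), and the neutrophil chemokine CXCL8, at -3.68 (adjusted p = 1.49e-06, both from limma). The matrix protease MMP3, 1 of the 3 counted as higher, was at 4.25 ± 3.23 and 13.3 ± 1.28 normalized counts (SD, n = 3 each). It passed the filter on low values only through the shRNF25 libraries, so its call is no support for a rise, and it was lost in 8 of 14 alternative fits. VIM, the intermediate filament vimentin, rose from 355 ± 133 to 832 ± 43.4 (log2 fold change 1.31, adjusted p = 0.00805 from limma). The remaining gene that rose, named after its values were seen, was the collagenase MMP1, at 0.86 (adjusted p = 0.0246 from limma), which lost its call without shControl replicate 2 or any shRNF25 replicate, with adjusted p-values up to 0.11. Without shControl replicate 2, or without any shRNF25 replicate, 1 gene of the list was called higher, while 14 or 15 were called lower in every fit that left out a library.

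Genes of the integrated stress response, which often accompany ATF3, were called in both directions. Of 13 tested, 2 rose and 2 fell, or 30.8% against 15.7% of all tested genes, and the median log2 fold change was 0.21. NUPR1, a stress-induced chromatin regulator, rose at 1.29 (adjusted p = 0.00479) and PSAT1, an enzyme of serine synthesis, at 0.67 (adjusted p = 0.0246, both from limma). PSAT1 failed the criteria without shControl replicate 3, at 0.46, and without any of the shRNF25 replicates, with adjusted p-values up to 0.108. DDIT4, an mTOR inhibitor induced by hypoxia and stress, fell at -2.25 (adjusted p = 0.000422), and CEBPB, a bZIP factor, at -0.81 (adjusted p = 0.00167, both from limma).

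**Figure D5:**
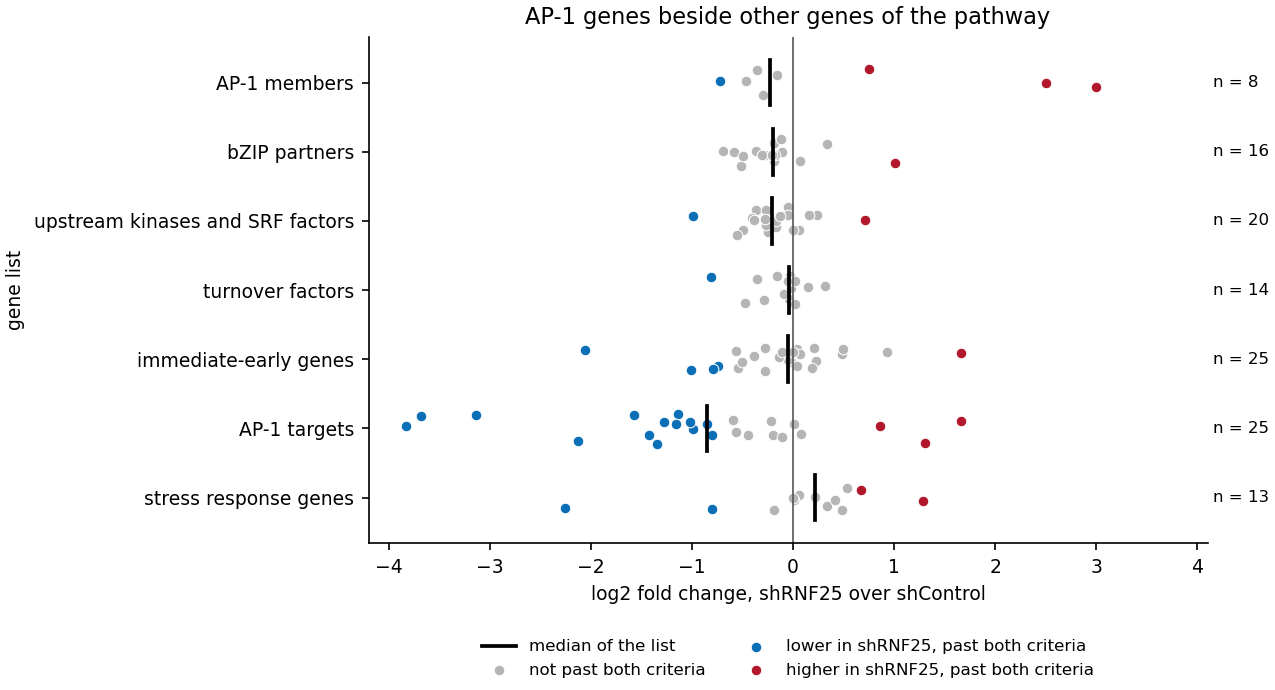
Log2 fold change (shRNF25 over shControl) of every tested gene in the AP-1 list and in 6 lists of related genes, with red and blue for genes past both criteria and a black bar at the median of each list. AP-1 targets lie mostly to the left (median -0.85), while the other lists have medians between -0.23 and 0.21.

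The genes whose profile over the 6 libraries was nearest to that of FOS, by Euclidean distance of mean-centred log2 values among all tested genes, were FREM1 (distance 0.420), FAM131B (0.623) and NTSR1 (0.649). FAM131B, for example, was at 43.1, 67.7 and 119.8 across the control replicates in order and at 520.3, 533 and 495 across the knockdown replicates. FREM1 rested on few reads, at 1.03 to 5.40 normalized counts in shControl and 23.1 to 28.2 in shRNF25. It was among the tested genes only through the knockdown libraries, so a profile higher in shRNF25 followed from the filter. The nearest member was FOSB, at 0.715. For FOSL2 the nearest genes were MYO1E (0.056), LRFN1 (0.095) and PI4KAP1 (0.101), and the nearest member was JUN, at 0.517. These distances are a description over 6 libraries that fall into 2 groups.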

How the data were processed

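SW839 total RNA was depleted of ribosomal RNA, made into libraries with a stranded kit, and sequenced from 3 shControl and 3 shRNF25 libraries, grouped by their titles. The authors deposited normalized counts, a signal obtained by dividing each library's gene counts by a size factor. The submitters' processing notes name fastp, HISAT2, HTSeq and GRCh38, and the paper names DESeq2. The annotation and the strand setting of the counting are not given in the sources used here. Dividing by the smallest step of each library gave whole reads for 100% of values (tolerance 0.01 reads), with size factors of 0.905 to 1.10. The 8 members and all gene lists were chosen with earlier results of these data known. Genes with at least 10 normalized counts in at least 3 libraries (16554) were fitted as log2(normalized count + 1) with limma 3.58.1 (lmFit, eBayes with trend) in R 4.3.3, without covariates and with Benjamini-Hochberg adjustment over all of them. Genes were called where the adjusted p was under 0.05 and the change 1.5-fold or more. Standard errors are limma's moderated ones. The fits were tested on simulated data with equal spread in both groups. The real spread was unequal, with a median ratio of highest to lowest library over tested genes of 1.41 in shControl and 1.14 in shRNF25. The simulation therefore did not test the effect of unequal spread. Nothing ties the libraries to separate cultures beyond the words biological triplicates. The limma p-values judge a group difference against the spread between these libraries, pooled over both groups. Alternatives tried were a pseudocount of 5 or 0.5, no filter or a minimum of 50, quantile normalization, rescaling on the median ratio, count models on the recovered reads with edgeR 4.0.16 (TMM) and DESeq2 1.42.0, a block for the replicate number, a fold change of at least 2, and each library left out, with the genes tested held fixed. Besides the members, the genes named are, in each list other than cell markers, the called genes with the 2 largest rises and the 2 largest falls, and the 3 nearest profiles to the members with the largest rise and fall. Other names are marked where they occur. Of the listed symbols, 6 were not matched and are not analysed here. Gene positions and exon lengths come from GENCODE 29, and promoter windows from RefSeq.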

Additional observations from a re-analysis of the deposited data

How the results depend on the processing

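FOS, FOSB, FOSL2, JUN, JUNB, JUND and ATF3 kept the sign of their log2 fold change in all 15 alternative fits. FOSL1 changed sign to 0.0109 without shControl replicate 1, and ranged from -0.509 to 0.0109 over the fits without 1 library. A fold change of at least 2 left 0 members lower. It also left 0 upstream factors higher and 0 lower, and 0 turnover factors lower. Of the immediate-early genes it left 2 lower, and of the stress response genes 1 higher and 1 lower. A stricter limit can by construction only keep or reduce a count, and the size of the reduction depends on the fold changes. DESeq2 and the replicate block each called 1 bZIP partner lower, and the block called 2 immediate-early genes higher. The cause of these moves was not tested. Without 1 library, the bZIP partners lower ranged from 0 to 2, the upstream factors higher from 0 to 1 and lower from 0 to 2, the turnover factors lower from 0 to 1, the immediate-early genes higher from 1 to 2, the AP-1 targets higher from 1 to 3 and the stress response genes higher from 1 to 3. The block moved all calls from 1432 higher and 1175 lower to 1398 and 1193. Libraries that share a replicate number did not deviate together, with correlations of -0.0638, -0.0874 and 0.0471, and they share only a number.

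Per kilobase, the shares in shControl became 4.35% for FOSL2, 6.87% for JUN, 22.3% for JUNB, 7.22% for JUND and 3.66% for ATF3. In shRNF25 they became 6.50% for FOS, 2.10% for FOSB, 50.1% for FOSL1, 3.00% for FOSL2, 6.03% for JUN, 18.1% for JUNB, 7.36% for JUND and 6.75% for ATF3, because the exon lengths differ. With quantile normalization the share of JUND in shRNF25 was 5.49%. Over the whole table, the fits without 1 library called 748 to 1725 genes higher and 813 to 1269 lower, against 1432 and 1175 with all libraries, and the 3 fits without an shRNF25 library called the fewest. With a minimum of 50 normalized counts, 898 genes were called higher and 987 lower, out of fewer genes tested. MMP3, FREM1 and BATF rest on few reads, which limits the precision of their values.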

Other observations

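The control library in which FOS and FOSB were highest was also the highest control for 14 of 25 tested immediate-early genes, against 31.6% of all tested genes. DUSP1, a phosphatase that inactivates MAP kinases and a gene named after its values were seen, was at 1822 in shControl replicate 3 and at 859 and 945 in replicates 1 and 2. It lay between 755 and 802 in shRNF25, so that unlike FOS it was lower there than in every control library (log2 fold change -0.56, adjusted p = 0.135 from limma). The same library was the highest control for 5 of 9 tested renal carcinoma markers, 3 of 4 tested markers of other cell types, 9 of 25 AP-1 targets, 5 of 13 stress response genes, 4 of 16 bZIP partners, 4 of 20 upstream factors and 2 of 14 turnover factors.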
